A study of Mus musculus with 12 samples.

Results

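The helper and regulatory T cell genes described here are 9 genes chosen by name: the cytokine genes Il17a, Il17f, Il22 and Ifng, the cytokine subunit genes Il23a and Il12b, and the transcription factor genes Tbx21, Foxp3 and Gata3. All 9 were found among the 22180 mouse genes that the array's annotation ties to a probe set with exactly 1 symbol. Each gene stands for its brightest probe set over 12 arrays. The arrays measured RNA from mouse colon, with 3 arrays in each of 4 genotypes. DKO lacks both genes (IL10-/- STING-/-), IL10KO lacks interleukin-10 alone (IL10-/- STING+/+), SKO lacks STING alone (IL10+/+ STING-/-) and WT carries both (IL10+/+ STING+/+). The sources used here do not give strain, age, housing or how the knockout alleles were made. Separate animals are not stated either, and the p-values therefore reflect the spread among these arrays, which may be technical. Values are log2 signals, a difference of 1 on this scale being a doubling. A gene counts as called when the p of limma's moderated test, adjusted over all 22180 genes by Benjamini-Hochberg, is under 0.05.

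CD4 helper T cells are sorted into classes by the transcription factor they express and the cytokines they release. T-bet, encoded by Tbx21, directs the Th1 class and its cytokine interferon-gamma (Ifng), with interleukin-12 from dendritic cells and macrophages as the inducing signal. Th17 cells release interleukin-17A, interleukin-17F and interleukin-22, and are maintained by interleukin-23, a dimer of the proteins encoded by Il23a and Il12b, and the Il12b protein is also a part of interleukin-12. GATA3 directs the Th2 class, and FOXP3 specifies regulatory T cells, which restrain the other classes and are a source of interleukin-10 in the gut. Colitis in mice without interleukin-10 is a textbook model in which the interleukin-23, Th17 and Th1 axes have been implicated.

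Sting1, which encodes STING and was targeted in DKO and SKO, was set against the labels first. It read 4.23, 4.13 and 4.34 in DKO, 6.87, 8.09 and 7.33 in IL10KO, 4.40, 4.32 and 4.28 in SKO, and 7.51, 6.40 and 4.56 in WT. The last of these, the library labelled WT replicate 3, lay near the STING knockout arrays and far from the other WT arrays. The Il10 probe set read 4.47 ± 0.13 in DKO, 4.98 ± 0.45 in IL10KO, 3.72 ± 0.09 in SKO and 3.68 ± 0.11 in WT (SD, n = 3 each). The sources used here do not say whether it lies in the deleted part, so it does not check the labels.

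Other libraries stood apart as well. WT replicates 1 and 2 had pancreatic acinar enzymes at a mean of 9.36 and 11.98, against 4.99 to 5.58 on the other 10 arrays. IL10KO replicates 2 and 3 had stratified squamous and sebaceous genes at a mean of 6.90 and 6.95, against 4.39 to 5.26 on the other 10 arrays. Each of these pairs was left out together in some fits below, and the part of such tissue in the values was not tested. On IL10KO replicate 1 the lower quartile of all genes was 4.26, and on SKO replicate 2 it was 4.20, while on the other 10 arrays it lay between 3.90 and 4.09. The mean of the 9 genes was also highest on those arrays, 4.67 on IL10KO replicate 1 and 4.44 on SKO replicate 2, against 4.07 to 4.41 on the others, and the part of the arrays' signal range in the values was not tested. Of the 9 genes, 4 (Il17a, Il22, Il23a and Ifng) belong to the dimmest 33% of all genes.

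**Figure D1:**
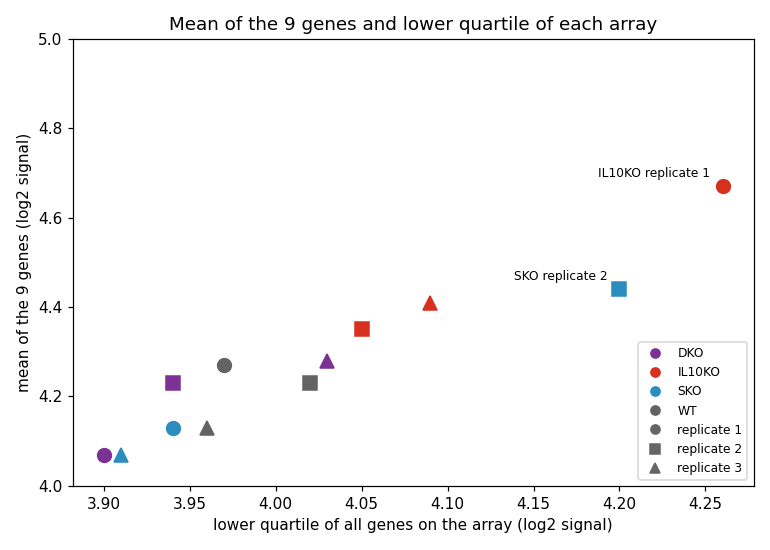
Mean log2 signal of the 9 genes (vertical axis) against the lower quartile of all 22180 genes on the same array (horizontal axis), 1 point per array, coloured by genotype with a symbol per replicate. IL10KO replicate 1 (4.26, 4.67) and SKO replicate 2 (4.20, 4.44) lie at the upper right, and the other IL10KO arrays are next.

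None of the 9 genes passed the test in any comparison of genotypes. For IL-10 loss with STING intact (IL10KO against WT), 0 of 9 were called by limma, where 8.14% of all genes were (3.12% higher and 5.01% lower). For STING loss on the IL-10-deficient background (DKO against IL10KO), 0 of 9 were called, against 5.79% of all genes (3.34% higher and 2.45% lower). The counts were also 0 of 9 for DKO against SKO (0.0451% of all genes), SKO against WT (0%), DKO against WT (0.0451%) and for the interaction, (DKO minus SKO) minus (IL10KO minus WT), which sets the 2 IL-10 effects against each other (0.645%). At an unadjusted limma p under 0.05, 2 of 9 were past the threshold in IL10KO against WT (26.2% of all genes), 2 in DKO against IL10KO (24.4%), 1 in the interaction (15.7%) and 0 in DKO against SKO (4.77%), SKO against WT (2.05%) and DKO against WT (2.92%). These shares of members lie near those of all genes. The comparisons share arrays, so IL10KO arrays enter both of the first 2. In bulk tissue, fewer cells of a type and less RNA per cell cannot be told apart, and this holds for every value below.

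In IL10KO against WT the 9 differences lay between -0.09 and 0.55 with a median of 0.28, beside 0.03 over all genes, and 8 of 9 were above 0. In DKO against IL10KO they lay between -0.61 and 0.04 with a median of -0.35, beside -0.04 over all genes, and 7 of 9 were below 0. For DKO against SKO the median was -0.06 and for SKO against WT it was 0.02. With quantile normalization, which gives all arrays the same distribution, the median was 0.18 in IL10KO against WT and -0.21 in DKO against IL10KO. Without IL10KO replicate 1 these medians were 0.10 and -0.17. In IL10KO against WT the median was 0.25 without the library labelled WT replicate 3, and 0.33 with that library as the only WT array. It was 0.55 with IL10KO replicate 1 as the only IL10KO array. A p that misses the threshold does not show that genotypes are alike, and the 95% confidence intervals below give the sizes these 12 arrays allow.

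**Figure D2:**
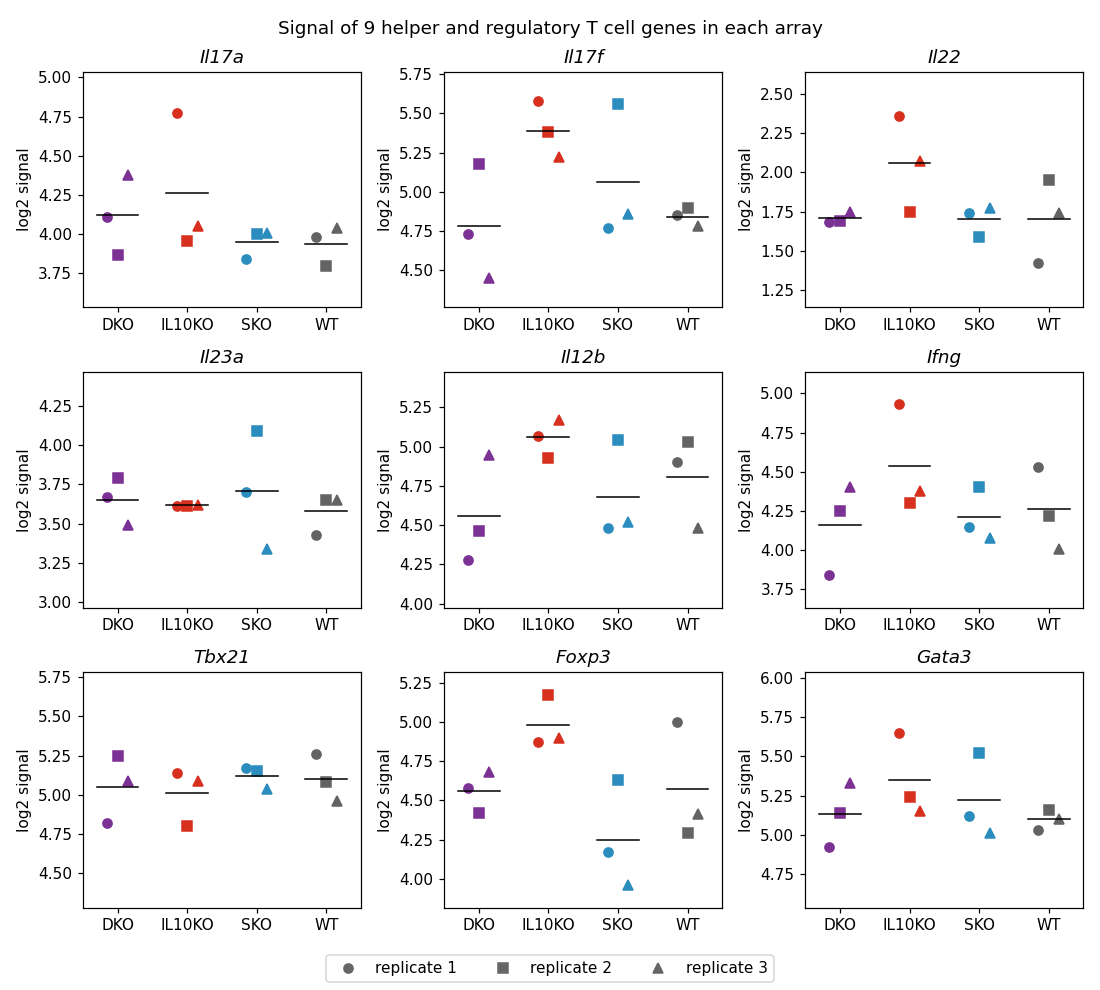
Log2 signal (vertical axis, each panel spanning the same height) of the 9 genes in every array, by genotype; symbols mark the replicate and black bars the mean of 3 arrays. Most ranges overlap, and IL10KO replicate 1 (red circles) is the highest of all 12 arrays for 5 of the genes.

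**Figure D3:**
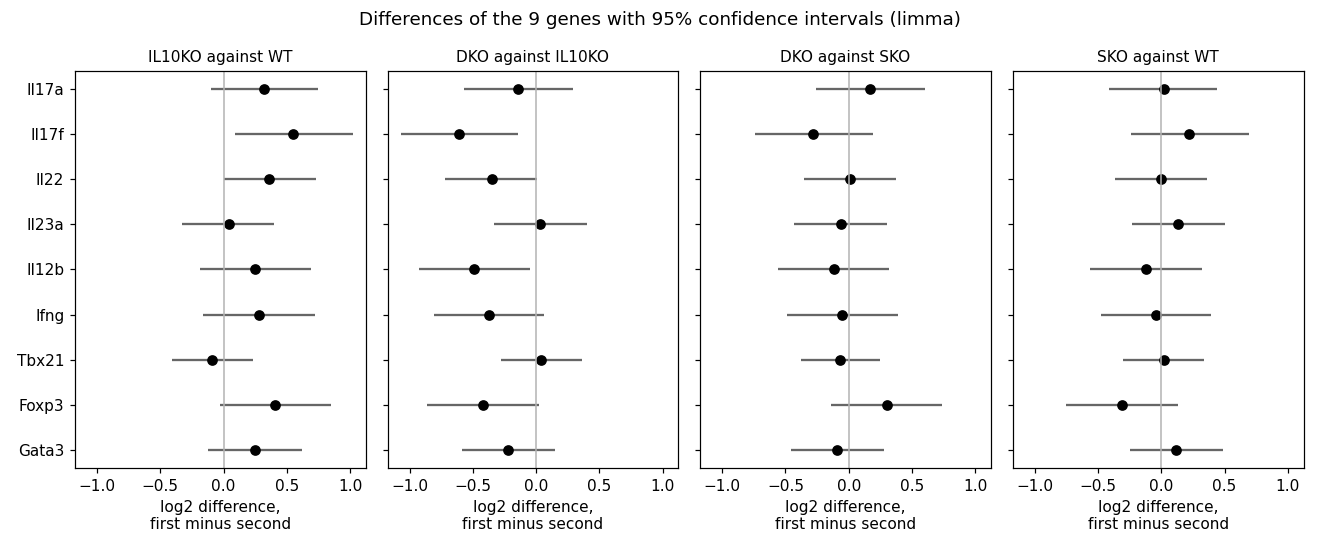
Log2 differences (horizontal axis, first genotype minus second) of the 9 genes in 4 comparisons, with 95% confidence intervals from limma. In IL10KO against WT the points lie between -0.09 and 0.55, and in DKO against SKO and SKO against WT every interval crosses 0.

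The 2 interleukin-17 genes differed in how their arrays fell, with no test of one against the other. In the order of replicates 1 to 3, which names arrays and pairs nothing, Il17f read 4.73, 5.18 and 4.45 in DKO, 5.58, 5.38 and 5.22 in IL10KO, 4.77, 5.56 and 4.86 in SKO, and 4.85, 4.90 and 4.78 in WT. All 3 IL10KO arrays lay above all 3 WT arrays and above all 3 DKO arrays, while SKO replicate 2 reached the IL10KO range. The mean was 4.78 ± 0.37 in DKO, 5.39 ± 0.18 in IL10KO, 5.06 ± 0.43 in SKO and 4.84 ± 0.06 in WT (SD, n = 3 each). IL10KO exceeded WT by 0.55 ± 0.22 (SE, 1.47-fold, 95% interval 0.09 to 1.02), with a limma adjusted p of 0.125 and an unadjusted p of 0.0231. DKO minus IL10KO was -0.61 ± 0.22 (interval -1.07 to -0.14, limma adjusted p = 0.109, unadjusted p = 0.014). That value passed, at a limma adjusted p of 0.0493, when SKO replicate 2 was left out of the fit, which leaves the difference as it is and alters the shared spread. Over the other alternatives its adjusted p was between 0.0808 and 0.278. The interaction was -0.83 ± 0.30 for Il17f, the farthest from 0 of the 9, and did not pass (limma adjusted p = 0.235, unadjusted p = 0.0171). Over the alternatives it lay between -1.03 and -0.40. Without WT replicate 3, IL10KO replicate 1 and SKO replicate 2 it was -0.46, and the median interaction of the 9 genes, -0.33 with all arrays, was 0.05.

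Il17a, the better known of the pair, read 4.11, 3.87 and 4.38 in DKO, 4.77, 3.96 and 4.05 in IL10KO, 3.84, 4.0 and 4.01 in SKO, and 3.98, 3.80 and 4.04 in WT. Only IL10KO replicate 1 and DKO replicate 3 stood clear of the other arrays. IL10KO minus WT was 0.32 ± 0.20 (SE, interval -0.10 to 0.75, limma adjusted p = 0.32), and without IL10KO replicate 1 it was 0.07 (adjusted p = 0.857). With IL10KO replicate 1 as the single IL10KO array, whose spread is then assumed to be that of the other groups, it was 0.84 and passed (limma adjusted p = 0.0248). DKO minus IL10KO was -0.14 ± 0.20 (interval -0.57 to 0.29, limma adjusted p = 0.685). Its sign turned without IL10KO replicate 1, to 0.12, and it was -0.65 with that array as the only IL10KO array and -0.02 without DKO replicate 2. DKO minus SKO was 0.17 ± 0.20 (interval -0.26 to 0.60).

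Il17a and Il17f are neighbours on chromosome 1, and the 250 bases before their RefSeq starts (GRCm38.p6) are shown because the pair encode signature cytokines of the Th17 class. Capitals mark 2 short motifs, AGGTCA, a half-site of nuclear receptors, and TATAAA, a form of the TATA box. On the opposite strand the first reads TGACCT and the second reads TTTATA. Both strands were searched, and the matches do not overlap. Il17a lies on the plus strand at chr1:20730655-20730904 and Il17f on the minus strand at chr1:20784271-20784520.
Il17a: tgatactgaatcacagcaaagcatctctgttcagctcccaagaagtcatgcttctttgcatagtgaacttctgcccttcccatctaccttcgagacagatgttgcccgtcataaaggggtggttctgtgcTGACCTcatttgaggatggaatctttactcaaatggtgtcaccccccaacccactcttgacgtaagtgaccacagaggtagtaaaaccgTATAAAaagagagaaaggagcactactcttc
Il17f: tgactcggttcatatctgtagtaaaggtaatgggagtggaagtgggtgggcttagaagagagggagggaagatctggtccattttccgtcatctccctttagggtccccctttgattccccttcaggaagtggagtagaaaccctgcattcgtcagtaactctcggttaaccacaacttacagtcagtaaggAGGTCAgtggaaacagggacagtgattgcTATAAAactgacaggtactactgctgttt
Both windows hold the 2 motifs, with AGGTCA at 120 bases before the start in Il17a and 58 in Il17f, and TATAAA at 31 and 29. Of 32851 such windows of mouse genes, 14.0% hold AGGTCA and 12.4% hold TATAAA on either strand. The match is a description of letters and says nothing about binding.

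Il22, whose product drives epithelial defence, had the lowest signal of the 9, below the lower quartile of all genes on each of the 12 arrays. It read 1.68, 1.69 and 1.75 in DKO, 2.36, 1.75 and 2.07 in IL10KO, 1.74, 1.59 and 1.77 in SKO, and 1.42, 1.95 and 1.74 in WT. IL10KO replicates 1 and 3 read above all other arrays. The IL10KO minus WT difference was 0.36 ± 0.17 (SE, interval 0.00 to 0.73, limma adjusted p = 0.191), and DKO minus IL10KO was -0.35 ± 0.17 (interval -0.72 to 0.01, limma adjusted p = 0.217), where the highest DKO and the lowest IL10KO array both rounded to 1.75. Without IL10KO replicate 1 the first value was 0.21 and the second -0.20, and without WT replicate 1 the first was 0.22.

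The mouse genome holds a near-identical copy of Il22, Iltifb, so signal of one cannot be assigned to it with certainty. The windows of 300 bases around the starts of both genes share an unbroken run of 30 bases, and the probe sequences were not compared. The probe set of Iltifb read 1.82, 1.62 and 1.72 in DKO, 2.46, 1.70 and 2.89 in IL10KO, 1.81, 1.62 and 1.74 in SKO, and 1.63, 1.66 and 1.79 in WT. Here too IL10KO replicates 1 and 3 stood above every other array, while IL10KO replicate 2 read within the range of the other genotypes. Between IL10KO and WT the difference was 0.66 ± 0.22 (limma adjusted p = 0.0844) and DKO minus IL10KO -0.63 ± 0.22 (limma adjusted p = 0.107).

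Il23a, the subunit specific to interleukin-23, showed no difference between genotypes beyond the spread. It read 3.67, 3.79 and 3.49 in DKO, 3.61, 3.61 and 3.62 in IL10KO, 3.70, 4.09 and 3.34 in SKO, and 3.43, 3.65 and 3.65 in WT. The 3 IL10KO arrays lay within 0.01 (SD) of each other and inside the range of every other genotype. IL10KO minus WT was 0.04 ± 0.17 (interval -0.33 to 0.40, limma adjusted p = 0.91) and DKO minus IL10KO 0.03 ± 0.17 (interval -0.33 to 0.40, limma adjusted p = 0.926). The first of these was -0.04 without WT replicate 1 and the second -0.04 without DKO replicate 2. Its signal lay below the lower quartile of all genes on 12 of 12 arrays.

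Il12b, the subunit shared by interleukin-12 and interleukin-23, read 4.28, 4.46 and 4.95 in DKO, 5.07, 4.93 and 5.17 in IL10KO, 4.48, 5.04 and 4.52 in SKO, and 4.90, 5.03 and 4.48 in WT. All IL10KO arrays were among the highest readings, though 1 array of each other genotype reached them. DKO minus IL10KO was -0.49 ± 0.20 (interval -0.93 to -0.05, limma adjusted p = 0.161, unadjusted p = 0.031), and IL10KO minus WT was 0.25 ± 0.20 (interval -0.19 to 0.69, limma adjusted p = 0.458). That value was 0.09 without the library labelled WT replicate 3 and 0.57 with it as the only WT array. DKO minus IL10KO lay between -0.68 without DKO replicate 3 (limma adjusted p = 0.0799) and -0.35 without DKO replicate 1 (0.445) over single omissions.

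Ifng, the Th1 cytokine, read 3.84, 4.25 and 4.40 in DKO, 4.93, 4.30 and 4.38 in IL10KO, 4.15, 4.40 and 4.08 in SKO, and 4.53, 4.22 and 4.01 in WT. IL10KO replicate 1 was the highest and WT replicate 1 the next, and the other 10 arrays lay together. Between IL10KO and WT the difference was 0.28 ± 0.20 (interval -0.16 to 0.72, limma adjusted p = 0.399). It was 0.08 without IL10KO replicate 1, 0.42 without WT replicate 1 and 0.16 without the library labelled WT replicate 3 (limma adjusted p = 0.859, 0.305 and 0.723). With WT replicate 3, IL10KO replicate 1 and SKO replicate 2 all left out the sign turned, to -0.04. DKO minus IL10KO was -0.37 ± 0.20 (interval -0.81 to 0.06, limma adjusted p = 0.274), with -0.17 without IL10KO replicate 1 and -0.21 without DKO replicate 1. Tbx21, which encodes the factor that switches Ifng on, varied least of the 9, between 4.80 and 5.26 over all arrays. It read 4.82, 5.25 and 5.09 in DKO, 5.14, 4.80 and 5.09 in IL10KO, 5.17, 5.15 and 5.04 in SKO, and 5.26, 5.08 and 4.96 in WT. IL10KO minus WT was -0.09 ± 0.15 (interval -0.41 to 0.23, limma adjusted p = 0.737), and this difference was 0.02 without IL10KO replicate 2. A doubling of the Tbx21 signal lies outside the interval. That signal was below the median of all genes on 12 of 12 arrays, so the interval need not bound the change in RNA.

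The 250 bases before the start of Ifng (GRCm38.p6, chr10:118440796-118441045, plus strand) are shown for comparison with the Th17 pair, with the same motifs in capitals.
Ifng: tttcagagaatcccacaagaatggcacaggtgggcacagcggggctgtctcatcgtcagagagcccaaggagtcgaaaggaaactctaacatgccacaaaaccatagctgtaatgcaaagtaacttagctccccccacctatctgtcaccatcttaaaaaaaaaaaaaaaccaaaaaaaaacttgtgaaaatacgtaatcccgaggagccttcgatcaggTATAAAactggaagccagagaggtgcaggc
TATAAA stands 30 bases before the start, and the letters AGGTCA are not in this window. Of the 9 genes, 8 have such a window in RefSeq, 5 with TATAAA and 3 with AGGTCA on either strand.

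Foxp3, the factor of regulatory T cells, had the widest spread of the 9, between 3.96 and 5.17. It read 4.58, 4.42 and 4.68 in DKO, 4.87, 5.17 and 4.90 in IL10KO, 4.17, 4.63 and 3.96 in SKO, and 5.0, 4.29 and 4.41 in WT. All DKO arrays lay below all IL10KO arrays, and WT replicate 1 alone reached the IL10KO range. The means were 4.56 ± 0.13 in DKO, 4.98 ± 0.17 in IL10KO, 4.25 ± 0.34 in SKO and 4.57 ± 0.38 in WT (SD, n = 3 each). DKO minus IL10KO was -0.42 ± 0.20 (interval -0.86 to 0.02, limma adjusted p = 0.224). The IL10KO minus WT difference was 0.41 ± 0.20 (interval -0.03 to 0.85, limma adjusted p = 0.218), and over single omissions it lay between 0.27 without WT replicate 2 (limma adjusted p = 0.494) and 0.63 without WT replicate 1 (0.0891). DKO minus SKO was 0.30 ± 0.20 (interval -0.14 to 0.74, limma adjusted p = 0.998).

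Gata3, the factor of the Th2 class, is also known from innate lymphoid cells and from stratified epithelium. It read 4.92, 5.14 and 5.33 in DKO, 5.65, 5.24 and 5.15 in IL10KO, 5.12, 5.52 and 5.01 in SKO, and 5.03, 5.16 and 5.10 in WT. IL10KO replicate 1 and SKO replicate 2 were the highest. Between IL10KO and WT the difference was 0.25 ± 0.17 (interval -0.12 to 0.62, limma adjusted p = 0.372). It was 0.10 without IL10KO replicate 1 and 0.55 with that array as the only IL10KO array. Gata3 is the only one of the 9 with another probe set of 1 symbol, which was dimmer and read 4.74, 4.66 and 5.07 in DKO, 5.17, 5.11 and 5.68 in IL10KO, 4.80, 5.41 and 4.65 in SKO, and 4.89, 4.85 and 4.76 in WT. Its highest array was IL10KO replicate 3, and its IL10KO arrays all lay above those of WT and DKO. With this probe set IL10KO minus WT was 0.48 ± 0.21 (limma adjusted p = 0.16). Across 18 stratified squamous and sebaceous genes the mean signal was between 4.40 and 5.19 in DKO, 5.26 and 6.95 in IL10KO, 4.39 and 4.64 in SKO and 4.45 and 4.49 in WT, and its part in the Gata3 values was not tested.

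The order of the 4 genotype means was not firm for any of the 9 genes. IL10KO had the highest mean for Il17a, Il17f, Il22, Il12b, Ifng, Foxp3 and Gata3, and SKO for Il23a and Tbx21. Genotypes next to each other in the order had overlapping ranges in every case but 1. For Il22, all IL10KO arrays lay above those of DKO, the next in order, though the nearest values both rounded to 1.75. Between pairs of genotypes, no array of one overlapped the range of the other for 1 of 9 genes in IL10KO against WT (Il17f, higher, where 14.0% of all genes were so placed) and for 3 of 9 in DKO against IL10KO (Il17f, Il22 and Foxp3, lower, with 13.8% of all genes). It was so for none in DKO against SKO (11.1% of all genes in either direction), SKO against WT (6.21%) and DKO against WT (9.40%).

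Genes whose pattern over the 12 arrays was most like that of a member are given by Pearson's r, as a description, since all points share the arrays' depth of signal and genotype. For Foxp3 they were Slamf1, a lymphocyte receptor (r = 0.91), Bst1 (0.91) and Lair1, an inhibitory receptor (0.91). For Il12b they were Fbxo17 (r = 0.96), Izumo1r, a surface protein of regulatory T cells (0.95), and Setd4 (0.92). For Ifng they were Tekt2 of cilia (r = 0.94), Garem2 (0.93) and Tnfsf14, a T cell cytokine gene (0.93). Il17f was closest to Tectb, an inner ear protein (r = 0.96), Lrfn5 (0.94) and Stoml3 (0.93), Il17a to Shoc1 of meiosis (0.95), Cltrn (0.93) and Wnt6 (0.91), and Il22 to Dcdc2a (0.93), Ssxb6 (0.93) and Tas2r105, a bitter taste receptor (0.92). Gata3 was closest to Klhl10 of the testis (r = 0.96), Lexis1 (0.96) and Epha10 (0.96), Il23a to Pramel20 (0.92), Kcnj3 (0.90) and Kcnd3os (0.90), and Tbx21 to Agbl5 (0.89), Efcc1 (0.85) and Lingo1 (0.83). Spearman's rank correlation over these pairs ran from 0.47 (Il17a and Wnt6) to 0.99 (Il12b and Fbxo17). For Il17a it was 0.71 with Shoc1 and 0.56 with Cltrn. Among the 9 themselves the closest pair was Ifng and Gata3 (r = 0.78), which came to 0.57 without IL10KO replicate 1, and then Il12b and Ifng (0.74, and 0.80 without that array). Il17a and Il17f had an r of 0.21, and -0.43 without that array.

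The wider Th17 and interleukin-23 list held 19 measured genes, of which 3 rose in IL10KO against WT, all of them inducers or a receptor shared with innate cells. Il1b, which promotes Th17 cells and is made by myeloid cells, was 8.77 ± 0.95 in IL10KO and 5.31 ± 0.90 in WT (SD, n = 3 each), a difference of 3.46 ± 0.44 (SE, limma adjusted p = 0.000548). Il6, another inducer of Th17 cells, rose by 1.39 ± 0.28 and the interleukin-1 receptor Il1r1 by 1.02 ± 0.17 (limma adjusted p = 0.00902 and 0.00333). The same 3 genes fell in DKO against IL10KO, with differences of -3.49, -1.38 and -0.98, and none of the 19 was called in DKO against SKO. The list's median was 0.22 in IL10KO against WT and -0.20 in DKO against IL10KO, beside 0.03 and -0.04 over all genes. Of single omissions, leaving out SKO replicate 2 gave 5 calls in IL10KO against WT, 4 higher and 1 lower. Leaving out IL10KO replicate 2 gave 4 there, 3 higher and 1 lower. In DKO against IL10KO leaving out DKO replicate 1 gave 2. With WT replicates 1 and 2 left out 1 of the 19 was called in IL10KO against WT, and with IL10KO replicates 2 and 3 left out 6 were, 3 of them lower. The 3 uncalled genes of the list nearest the threshold in IL10KO against WT, picked after their values were seen, went both ways. Ahr, a ligand-activated transcription factor of Th17 and innate lymphoid cells, was at -0.53 ± 0.15 (limma adjusted p = 0.052), Il23r, the specific receptor chain for interleukin-23, at 0.46 ± 0.15 (0.0693) and Il12rb1, its partner, at 0.48 ± 0.16 (0.0813).

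The Th1 and interleukin-12 list had no called gene among 15 in IL10KO against WT (median 0.19), in DKO against IL10KO (-0.12) or in DKO against SKO (-0.01). The nearest to the threshold in IL10KO against WT were Il18, an epithelial cytokine that acts on Th1 cells, at -0.47 ± 0.14 (9.36 ± 0.07 in IL10KO and 9.83 ± 0.09 in WT, limma adjusted p = 0.0576), and Il18rap, a chain of its receptor, at 0.99 ± 0.32 (limma adjusted p = 0.0724). Leaving out IL10KO replicate 1 gave 2 calls in IL10KO against WT and 1 in DKO against IL10KO. The Th2 list had 2 of 11 called in IL10KO against WT, Il4ra, the receptor chain for interleukins 4 and 13, up by 1.11 ± 0.14 (limma adjusted p = 0.000709), and Il33, an alarmin of stroma and epithelium, up by 1.20 ± 0.28 (0.0198). Without IL10KO replicate 3, WT replicate 2 or both WT replicates 1 and 2 the count was 1, and without IL10KO replicate 2 it was 3. Il4ra fell by 0.96 in DKO against IL10KO (limma adjusted p = 0.0024), the only one of 11 to pass there, and without IL10KO replicate 1 or 2 the count was 2, and without IL10KO replicates 2 and 3 it was 3.

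Of 18 regulatory T cell genes other than Foxp3, 4 rose and 1 fell in IL10KO against WT (median 0.32). The activation receptors Tnfrsf9, Ctla4 and Icos rose by 1.09 ± 0.18, 0.82 ± 0.18 and 0.63 ± 0.15 (limma adjusted p = 0.00343, 0.0152 and 0.0218), and Gpr83 fell by 0.87 ± 0.22 (0.0309). Tnfrsf9, Ctla4 and Icos fell in DKO against IL10KO, with differences of -0.96, -0.87 and -0.54 (limma adjusted p = 0.00917, 0.0149 and 0.0472), and none of 18 was called in DKO against SKO. These receptors are also expressed by activated helper T cells. The count of 5 in IL10KO against WT was 1 without IL10KO replicate 3 or the library labelled WT replicate 3, 1 with WT replicates 1 and 2 both left out, and 2 with IL10KO replicates 2 and 3 left out, and the count of 3 in DKO against IL10KO was 1 without DKO replicate 1 or 2 and 5 without SKO replicate 2.

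Among genes that interleukin-17 or interleukin-22 is known to raise, many were called. Like the other lists, this one was chosen with earlier results of these data known, so its counts describe and do not test. Of 17 measured, 12 rose and none fell in IL10KO against WT (median 1.55), and 12 fell and none rose in DKO against IL10KO (median -1.65). The 5 not called went both ways in IL10KO against WT, with Duox2 at 0.78, Fut2 at 0.28, Il22ra2 at -0.25, Pigr at -0.38 and Il22ra1 at -0.59. In DKO against IL10KO these were 0.36, -0.14, 0.58, 0.48 and 0.50. Reg3g, a bactericidal lectin, was 9.37 ± 0.74 in IL10KO and 2.81 ± 0.24 in WT (SD, n = 3 each, limma adjusted p = 2.33e-08), and Reg3b and the serum amyloid gene Saa3 differed by 6.28 and 6.39. In DKO against SKO 0 of 17 passed by limma, with a median of 0.17, and in the interaction 7 of 17 were lower. On the level of arrays, the mean of these 17 genes was between 5.70 and 5.86 in DKO, 7.75 and 8.32 in IL10KO, 5.60 and 5.72 in SKO and 5.65 and 5.70 in WT. Over single omissions 12 to 14 were called in IL10KO against WT and 11 to 14 in DKO against IL10KO, not all in 1 direction. Without IL10KO replicate 2 the 14 were 12 higher and 2 lower in IL10KO against WT. In DKO against IL10KO they were 2 higher and 12 lower. Without DKO replicate 3, 1 was lower in IL10KO against WT, and without SKO replicate 2, 1 was higher in DKO against IL10KO. With WT replicates 1 and 2 both left out, 7 were called in IL10KO against WT and 11 in DKO against IL10KO. Other cytokines raise many of them too, and S100a8 and S100a9 of this list are neutrophil genes. The mean of 13 neutrophil markers was between 4.44 and 4.60 in DKO, 5.78 and 7.18 in IL10KO, 4.46 and 4.47 in SKO and 4.41 and 4.49 in WT, with 10 of 13 risen in IL10KO against WT (3 with WT replicates 1 and 2 left out), and its part in the values was not tested.

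Among genes that interferon-gamma is known to raise, few were called. In IL10KO against WT 2 of 17 rose, the T cell attractant Cxcl9 by 2.67 ± 0.55 and the nitric oxide synthase Nos2 by 2.65 ± 0.31 (limma adjusted p = 0.0117 and 0.000332), and in DKO against IL10KO Nos2 alone was called (-1.86 ± 0.31, 0.00432). The list's median was 0.58 in IL10KO against WT and -0.47 in DKO against IL10KO. For DKO against SKO it was 0.64, beside -0.03 over all genes, and 0 of 17 were called. In the interaction 0 of 17 were called, with a median of 0.29. The mean over the 17 was between 6.67 and 7.13 in DKO, 7.38 and 7.67 in IL10KO and 5.92 and 6.31 in SKO, and 7.80, 6.33 and 5.99 in the 3 WT arrays, so that WT replicate 1 read above every IL10KO array. Ifng and Foxp3 were also highest among WT arrays there. Without WT replicate 1, 10 of 17 were called in IL10KO against WT, and without WT replicate 2, 1 was. With both left out 6 were. In DKO against IL10KO 3 were called without WT replicate 1, with or without WT replicate 2.

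Markers of lymphocytes stand beside the 9 genes. Of 15 pan-T-cell markers 3 rose in IL10KO against WT (median 0.36): the CD3 chains Cd3g (1.39 ± 0.39) and Cd3d (0.76 ± 0.22) and Thy1 (0.63 ± 0.17), with limma adjusted p = 0.0437, 0.0495 and 0.0386. The count was 0 without any 1 of IL10KO replicate 3, WT replicate 2, DKO replicates 2 and 3 and SKO replicates 1 and 3. In DKO against IL10KO 0 of 15 passed by limma, with a median of -0.46, and 1 did without IL10KO replicate 2. The mean over these markers was between 5.22 and 5.31 in DKO, 5.58 and 5.87 in IL10KO, 4.95 and 5.21 in SKO, and 4.88 and 5.69 in WT, where WT replicate 1 again was the highest. Of 12 natural killer and innate lymphoid markers 1 rose in IL10KO against WT, Klrb1c (1.0 ± 0.22, limma adjusted p = 0.0137), and 4 did without WT replicate 1. Of 17 dendritic cell and macrophage markers, the cells that make Il12b and Il23a, 1 rose, the complement gene C1qa (0.68 ± 0.16, limma adjusted p = 0.0217), with 0 called without IL10KO replicate 3, WT replicate 2 or the library labelled WT replicate 3, and 2 without IL10KO replicate 1 or 2. Of 11 B and plasma cell markers 1 rose, Mzb1 (0.94 ± 0.20, limma adjusted p = 0.0124), and 2 were called without IL10KO replicate 2. Colon epithelial markers were bright on every array, and the mean of 14 of them was between 10.35 and 10.42 in DKO, 9.70 and 9.95 in IL10KO, 10.06 and 10.26 in SKO, and 10.07 and 10.28 in WT. Of these, Car1 (-1.62), Aqp8 (-1.26) and Slc26a3 (-0.96), genes of surface colonocytes, fell in IL10KO against WT.

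**Figure D4:**
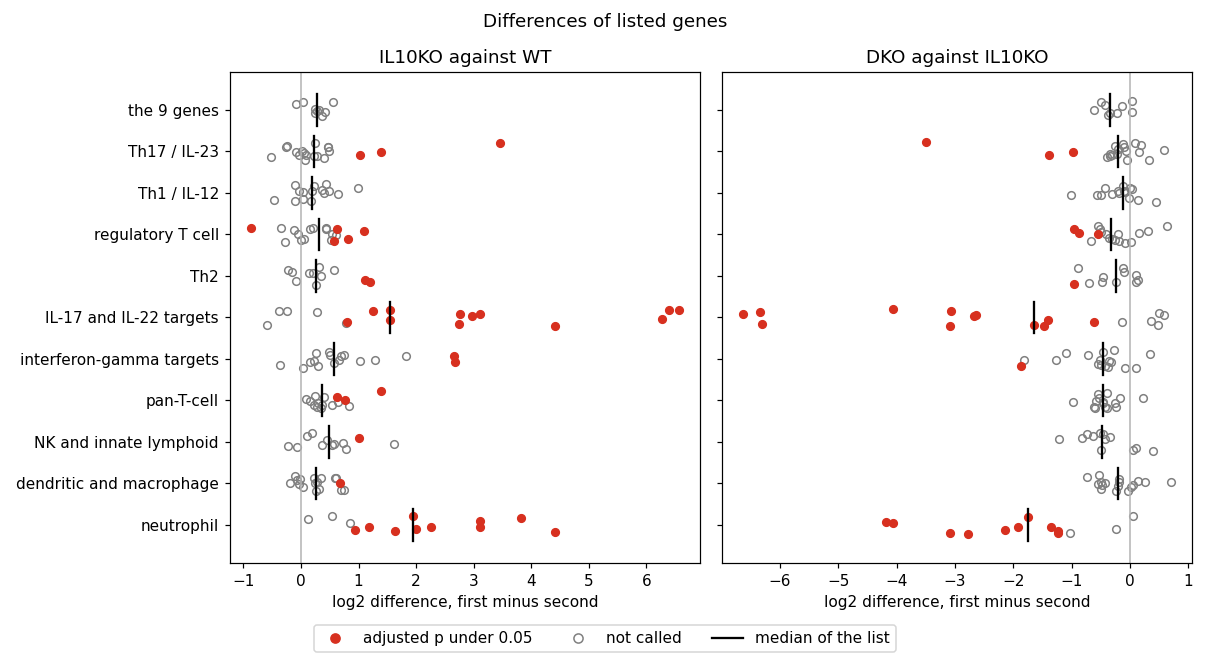
Log2 differences (horizontal axis) of the 9 genes and of the listed pathway and cell type genes in IL10KO against WT (left) and DKO against IL10KO (right); filled red points passed limma's adjusted p of 0.05, open points did not, and black bars are list medians. The 9 genes, none of them filled, lie between -0.09 and 0.55 on the left and between -0.61 and 0.04 on the right. Their medians are 0.28 and -0.35. Of 17 genes that interleukin-17 or interleukin-22 is known to raise, 12 are filled in each panel. The lists were chosen with earlier results of these data known.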

How the data were processed

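RNA of 12 colon samples was labelled with the WT PLUS kit (300 ng each) and hybridised to Affymetrix arrays, per the labels' protocols. The deposited values are log2 signals per probe set, produced by the authors in Affymetrix Expression Console 1.3.1.187, named per the submitters' processing notes. Summary method, normalization and genome build were not given in the sources used here, whereas the log2 scale rests on the values (1.08 to 13.29 over 41345 probe sets). No detection calls were given. Precision is limited by the number of arrays. Of the probe sets, 23521 had 1 symbol in the platform annotation, 1814 several, and 16010 were unlisted; and the brightest per gene left 22180 genes. Entrez identifiers were looked up in the GRCm38.p6 gene table (23328 matched, 0 updated), and promoter windows are those of RefSeq. All arrays were fitted with limma 3.58.1 in R 4.3.3 (8 residual and 5.56 prior degrees of freedom), 2-sided, with no filter and no further normalization. The steps were tested on simulated data. All 9 genes are named. Further named genes are, per list, up to 4 called with the largest difference, or the 2 smallest p, and per member the 3 highest correlations leaving out symbols of predicted genes, olfactory and vomeronasal receptors, antigen receptor segments and small RNAs. The 9 genes, the lists and the libraries left out together were chosen with earlier results of these data known. Replicates were numbered in accession order and pair nothing.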

Additional observations from a re-analysis of the deposited data

How the results depend on the processing

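The 54 differences (9 genes in 6 comparisons) were recomputed under 10 other settings, 12 omissions of 1 array, and 2 added after the data had been seen (all probe sets with 1 symbol, and the other Gata3 probe set). Of 1215 such values 2 passed the threshold, Il17f in DKO against IL10KO without SKO replicate 2 and Il17a in IL10KO against WT with IL10KO replicates 2 and 3 left out, which gave 1 called member each in place of 0, and 0 called values reversed. No paired analysis was possible because the labels give no shared replicate numbers. Over single omissions the members called numbered 0 to 1 in DKO against IL10KO and 0 in every other comparison.

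The counts over all genes moved more. For IL10KO against WT, 1805 genes were called, 783 to 3070 over single omissions, 704 with only the genotypes compared, 1013 without WT replicate 3, IL10KO replicate 1 and SKO replicate 2, 232 without WT replicates 1 and 2, and 2923 without IL10KO replicates 2 and 3. For DKO against IL10KO, 1284 were called, 425 to 2361 over single omissions, and under those settings 489 with only the genotypes compared, 846 without the WT pair and 2605 without the IL10KO pair. For DKO against SKO, 10 were called, 5 to 20 over single omissions, 41 with only the genotypes compared, 1940 with array weights, 21 without the 3 libraries and 32 without the WT pair. For SKO against WT, 0 were called by limma, 0 to 55 over single omissions and 50 without the 3 libraries. For DKO against WT, 10 were called, 5 to 69 over single omissions, 33 with array weights and 78 without the 3 libraries. For the interaction, (DKO minus SKO) minus (IL10KO minus WT), 143 were called, 50 to 376 over single omissions, 736 with array weights, 245 without the 3 libraries, 16 without the WT pair and 689 without the IL10KO pair. The cause was not tested. The filter on dim genes removed 4 of the 9 genes, which have no value under it.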
